A study of Mus musculus with 31 samples.

Results

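The genes described are 7 transcription factors that carry rhythm from the circadian clock to other genes: Dbp, Tef, Hlf, Nfil3, Ciart, Bhlhe40 and Bhlhe41. They were taken by name, from the 55288 Ensembl genes counted in either of 2 mouse RNA-seq experiments, and each name matched 1 gene. The names were chosen by a rule that states no fold change and no p-value. It was written with earlier results of these data known, and which measured values entered it is not recorded. The fold changes and p-values given for the 7 genes are therefore a description of these samples and not independent evidence.

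The study asks how ERRα, a nuclear receptor encoded by Esrra, takes part in the response to insulin. All mice were males of 2 to 3 months on a C57BL/6N background. In the insulin experiment, WT mice and mice lacking ERRα in every tissue (KO, ERRα-/-) went without food for 12 h overnight, and then received insulin (1 unit/kg) or saline by intraperitoneal injection. Livers were taken 4 h later, 6 h after lights on (ZT6), giving 4 WT livers with saline, 4 WT livers with insulin, 4 KO livers with saline and 3 KO livers with insulin. In the ERRα3SA experiment, livers and skeletal muscle (gastrocnemius with soleus) came from ERRα3SA mice, whose Esrra gene was edited so that serines phosphorylated in ERRα are replaced by alanine, and from WT littermates. Each of those 4 groups held 4 samples, taken between ZT2 and ZT6. These mice were fed a normal diet, and a fast before sampling is not given. Both alleles are present in the whole animal, so a difference in liver or muscle may start in another tissue. The time at which each mouse was sampled within the ZT window is not given, and its part in the results was not tested. The KO insulin group has only 3 livers. Total counts per sample ran from 35871419 to 48317108 in the insulin experiment and from 20481405 to 33412022 in the ERRα3SA experiment.

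The mammalian clock is driven by CLOCK and BMAL1 (the product of Arntl), which bind E-box motifs and switch on genes that include their own repressors. Dbp, Tef and Hlf encode PAR bZIP activators, which bind D-box motifs and drive detoxification and other rhythmic genes in liver. Nfil3 (E4BP4) encodes a repressor that binds the same D-box, Ciart (CHRONO) encodes a repressor of CLOCK and BMAL1, and Bhlhe40 and Bhlhe41 (DEC1 and DEC2) encode repressors that bind E-boxes themselves. In mouse liver Dbp messenger RNA peaks late in the light phase, while Nfil3 is high at about the opposite phase.

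Esrra was read first, since it checks the labels. Esrra was read at 32.3, 51.3, 42.7 and 40.5 CPM (counts scaled for library size) in WT saline livers 1 to 4 and at 53.7, 96.4, 56.1 and 59.0 CPM in WT insulin livers 1 to 4. In KO saline livers 1 to 4 it was read at 1.63, 0.703, 1.15 and 1.04 CPM, and in KO insulin livers 1, 2 and 4 at 0.833, 0.576 and 0.298 CPM. Every KO liver was far below every WT liver, as its label says. Esrra was at -5.20 on the log2 scale in KO against WT with saline (SE 0.24) and at -6.86 with insulin (SE 0.37). Esrra was read at 27.7, 27.1, 28.2 and 29.4 CPM in the WT littermate livers and at 29.4, 25.4, 21.1 and 19.2 CPM in the ERRα3SA livers. In muscle it was read at 90.2, 82.6, 66.9 and 78.0 CPM in the WT littermates and at 24.3, 133, 127 and 94.5 CPM in the ERRα3SA mice. The ERRα3SA edit changes codons, so the Esrra level does not check that label, and ERRα3SA muscle replicate 1 was the only muscle under 66.9 CPM.

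That library also stood apart in other ways. In ERRα3SA muscle replicate 1, transcripts of the mitochondrial genome took 19.3% of counts, against 9.15% to 10.8% in the other 7 muscles, and the 10 most abundant genes took 33.3%. Its 5 muscle markers summed to 172663 CPM, led by Myh4, against 76524 CPM to 113667 CPM in the other muscles. ERRα3SA muscle replicate 4 had the lowest of these sums and the highest sum of 5 macrophage and leukocyte markers, 53.2 CPM led by Cd68, against 9.66 CPM to 14.4 CPM in the other muscles. Clec4f, the marker of liver macrophages, had 0 counts in all 8 muscles. Changes of the 7 genes in ERRα3SA muscle are given with and without these libraries. Liver markers, led by Alb, summed to at most 1.26 CPM in any muscle and to at least 53410 CPM in any liver. The lowest liver sum belonged to ERRα3SA liver replicate 4. The 5 muscle markers summed to 73.3 CPM, led by Acta1 at 30.4 CPM, in WT insulin liver replicate 3 and to at most 10.5 CPM in every other liver. WT insulin liver 2 stood apart in the insulin experiment, with 1.88% of counts from the mitochondrial genome, against 3.14% to 4.82% in the other 14 livers, and with the fewest genes with counts, 14507. The part of these markers and shares in the results below was not tested.

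Levels below are CPM after TMM scaling, computed within each experiment, and levels of different genes are compared only per kilobase of exon. In the fasted WT livers with saline, Tef was the most abundant of the 7 genes, at 23.7 ± 5.19 CPM per kb (SD, n = 4). Hlf at 11.2 ± 1.30, Dbp at 10.6 ± 4.69 and Nfil3 at 10.3 ± 4.23 CPM per kb (SD, n = 4) followed and overlapped one another. Bhlhe40 stood at 5.74 ± 1.55, Ciart at 2.82 ± 1.77 and Bhlhe41 at 0.523 ± 0.175 CPM per kb (SD, n = 4). Tef did not overlap Hlf, and Ciart did not overlap Bhlhe41. The neighbours between them, from Hlf down to Ciart, overlapped in their sample ranges.

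The order was another one in the WT littermates of the ERRα3SA experiment. In their livers Nfil3 led, at 25.2 ± 9.76 CPM per kb (SD, n = 4), and overlapped Bhlhe40 at 11.8 ± 3.06 CPM per kb (SD, n = 4). Tef at 5.56 ± 1.56 and Hlf at 5.29 ± 0.564 CPM per kb (SD, n = 4) overlapped each other and lay below Bhlhe40 in every sample. Dbp was at 0.781 ± 0.711, Ciart at 0.128 ± 0.0384 and Bhlhe41 at 0.0751 ± 0.0372 CPM per kb (SD, n = 4). Dbp lay below Hlf in every sample, while Dbp and Ciart overlapped, as did Ciart and Bhlhe41. The 2 experiments differ in time window and scaling, and a fast before sampling is not given for the ERRα3SA experiment, so no test was made between them.

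In WT littermate muscle Tef at 33.0 ± 2.39 and Bhlhe40 at 32.1 ± 3.36 CPM per kb (SD, n = 4) were level with each other and above all others. Nfil3 at 13.4 ± 3.64, Dbp at 7.60 ± 3.30 and Bhlhe41 at 7.31 ± 0.737 CPM per kb (SD, n = 4) overlapped as neighbours. Hlf and Ciart came last, at 2.10 ± 0.170 and 0.688 ± 0.304 CPM per kb (SD, n = 4), with no overlap between them or with Bhlhe41.

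**Figure D1:**
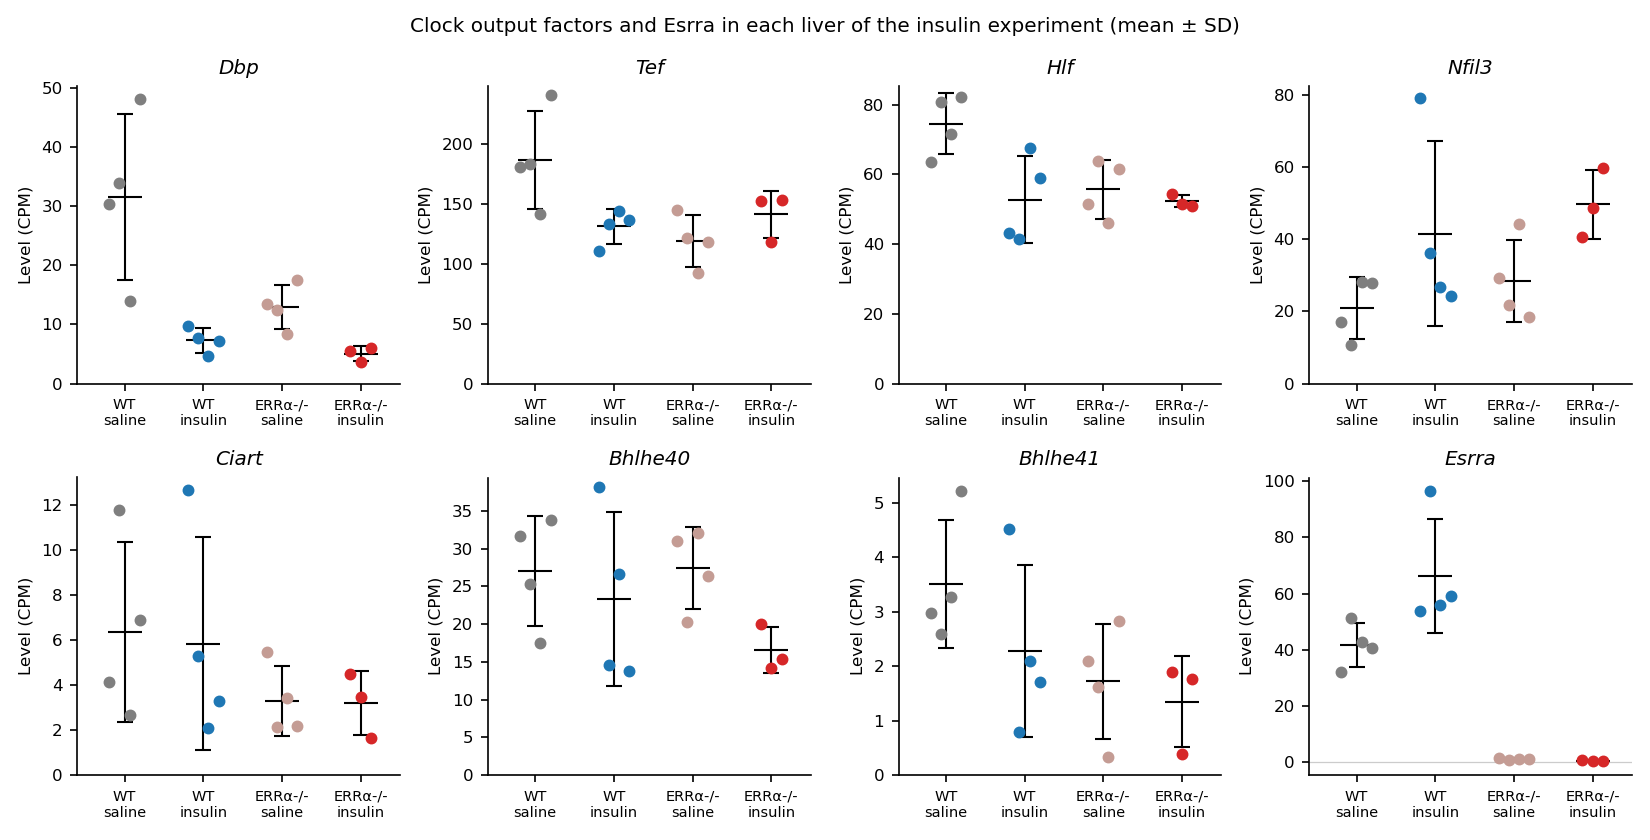
Level of each of the 7 genes in every liver of the insulin experiment, with Esrra in the last panel (vertical axis, CPM; each point, 1 liver; bars, mean ± SD). Dbp is lower in all livers with insulin than in the saline livers of the same genotype.

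The stretch around the start site is shown for the genes whose windows hold an E-box, because CLOCK and BMAL1 as well as Bhlhe40 and Bhlhe41 bind that motif, and for Dbp, whose level moved most of the 7 genes with insulin in liver. The windows run from 250 bases before the start site to 50 after it, 5′ to 3′ on the gene's own strand, and come from RefSeq on GRCm38.p6. Capitals mark CACGTG, which reads the same on both strands.
Ciart, chr3:95882179-95882478, minus strand: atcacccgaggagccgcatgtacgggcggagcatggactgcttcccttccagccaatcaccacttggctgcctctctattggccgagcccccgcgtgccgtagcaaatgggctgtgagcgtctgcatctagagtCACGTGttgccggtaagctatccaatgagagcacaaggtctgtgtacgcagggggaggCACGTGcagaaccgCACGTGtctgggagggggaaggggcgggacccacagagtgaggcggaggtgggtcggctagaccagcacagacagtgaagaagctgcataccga
Tef, upstream start, chr15:81802423-81802722, plus strand: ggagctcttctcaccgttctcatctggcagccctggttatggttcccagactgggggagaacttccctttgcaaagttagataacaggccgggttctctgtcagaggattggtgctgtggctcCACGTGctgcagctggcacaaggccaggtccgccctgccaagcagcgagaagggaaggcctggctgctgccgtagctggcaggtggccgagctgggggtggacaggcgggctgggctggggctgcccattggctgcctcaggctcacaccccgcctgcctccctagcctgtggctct
Tef, downstream start, chr15:81811164-81811463, plus strand: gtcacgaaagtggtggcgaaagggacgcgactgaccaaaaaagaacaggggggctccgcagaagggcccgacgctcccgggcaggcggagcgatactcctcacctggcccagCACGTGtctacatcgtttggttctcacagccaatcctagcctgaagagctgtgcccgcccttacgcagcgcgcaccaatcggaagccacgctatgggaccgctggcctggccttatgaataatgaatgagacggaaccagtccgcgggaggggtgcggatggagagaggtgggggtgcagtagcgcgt
Bhlhe41, chr6:145865371-145865670, minus strand: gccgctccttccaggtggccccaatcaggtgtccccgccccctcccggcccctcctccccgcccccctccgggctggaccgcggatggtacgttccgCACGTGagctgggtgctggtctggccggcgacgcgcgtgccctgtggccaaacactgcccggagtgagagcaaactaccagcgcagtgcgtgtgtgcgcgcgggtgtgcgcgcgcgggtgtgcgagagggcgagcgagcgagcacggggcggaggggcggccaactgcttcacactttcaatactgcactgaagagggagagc
Dbp, chr7:45704997-45705296, plus strand: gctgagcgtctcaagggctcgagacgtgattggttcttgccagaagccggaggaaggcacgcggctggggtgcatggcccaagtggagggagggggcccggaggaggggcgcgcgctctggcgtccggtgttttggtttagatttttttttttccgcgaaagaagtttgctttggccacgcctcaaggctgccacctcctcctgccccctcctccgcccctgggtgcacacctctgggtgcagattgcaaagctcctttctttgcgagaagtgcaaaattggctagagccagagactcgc
The Ciart window holds CACGTG 3 times, at 116, 58 and 44 bases before the start site. Each Tef window and the Bhlhe41 window hold it 1 time, and the windows of Dbp, Hlf and Nfil3 hold it 0 times. Of all 32851 windows in the table, 7.15% hold CACGTG. A D-box (TTATGTAA or TTACGTAA, in 1.06% of windows), the ERR motif AAGGTCA (4.72%) and the FoxO motif GTAAACA (3.65%), each searched on both strands, were in none of the members' windows. These matches describe letters in the windows and show neither binding nor its absence. No window was at hand for Bhlhe40.

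The first comparison asks what insulin does in the fasted WT liver. Insulin was followed by lower Dbp, Tef and Hlf, the 3 activators, and by higher Nfil3, the repressor of the same motif. Here a gene passed when its unadjusted p was under 0.05 with a change of at least 1.2-fold. By that rule 4 of the 7 genes passed, against 17.2% of the 13463 genes tested, and with an adjusted p under 0.05 1 of the 7 passed (Dbp), against 3.16%. The median log2 change of the 7 genes was -0.50, against 0.00 over all genes.

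Dbp was read at 30.4, 33.9, 14.0 and 48.1 CPM in WT saline livers 1 to 4 and at 9.77, 7.71, 4.61 and 7.21 CPM in WT insulin livers 1 to 4. Every insulin liver was below every saline liver, and replicate 3 was the lowest of both groups. The change was -2.11 on the log2 scale (SE 0.34), a 4.31-fold decrease, with an adjusted p of 0.00924 by the quasi-likelihood F-test of edgeR after Benjamini-Hochberg adjustment. Groups without overlap were seen in 12.4% of all genes tested. A decrease in a bulk liver can come from fewer cells that express a gene or from less RNA per cell, and these cannot be told apart here.

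Tef was read at 181, 183, 141 and 241 CPM with saline and at 110, 133, 144 and 136 CPM with insulin. WT saline liver 3, at 141, lay among the insulin livers, so the groups overlapped by that 1 liver. Tef fell by 0.51 on the log2 scale (SE 0.16, unadjusted p = 0.00914 by edgeR). Hlf was read at 63.7, 80.7, 71.6 and 82.4 CPM with saline and at 43.3, 41.4, 67.5 and 59.0 CPM with insulin. Insulin liver 3, at 67.5, lay above saline liver 1, and the other 3 insulin livers lay below all saline livers. Hlf fell by 0.50 (SE 0.17, unadjusted p = 0.0133 by edgeR). Neither passed adjustment over all genes, with adjusted p of 0.131 for Tef and 0.157 for Hlf by the quasi-likelihood F-test of edgeR after Benjamini-Hochberg adjustment.

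Nfil3 was read at 17.0, 10.6, 28.1 and 27.7 CPM with saline and at 79.0, 36.3, 26.6 and 24.2 CPM with insulin. Insulin livers 3 and 4 lay within the saline range, and insulin liver 1 was more than any other liver of the 15. The change was 0.99 on the log2 scale (SE 0.40, unadjusted p = 0.0286 by edgeR). It rested on single livers: it was 0.48 (unadjusted p = 0.146) without WT insulin liver 1, 0.77 (unadjusted p = 0.0755) without WT saline liver 2 and 0.91 (unadjusted p = 0.0722) without WT saline liver 1. Without any 1 of these 3, Nfil3 did not pass.

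The other repressors did not pass in WT liver. Ciart was read at 4.14, 11.8, 2.67 and 6.91 CPM with saline and at 12.6, 5.28, 2.10 and 3.27 CPM with insulin, 2 ranges that nearly coincide. Bhlhe40 was read at 31.6, 25.3, 17.5 and 33.7 CPM with saline and at 38.1, 14.6, 26.7 and 13.8 CPM with insulin, with the highest and the lowest liver both in the insulin group. Bhlhe41 was read at 2.98, 2.58, 3.27 and 5.22 CPM with saline and at 4.52, 0.794, 2.10 and 1.71 CPM with insulin. Insulin liver 1 was the highest of its group for all 4 repressors. Without WT insulin liver 1 the Bhlhe41 change moved from -0.62 to -1.19 and passed (unadjusted p = 0.0130 by edgeR).

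The same question in KO livers drew a partly different set. Dbp was again lower and Nfil3 again higher with insulin, Bhlhe40 was lower, and Tef and Hlf did not pass. In all 3 of the 7 genes passed, against 17.2% of the 13684 genes tested, and 1 of the 7 (Dbp) had an adjusted p under 0.05, against 2.91%. The median change of the 7 genes was -0.09, against -0.02 over all genes.

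Dbp was read at 13.5, 12.4, 8.38 and 17.5 CPM in KO saline livers 1 to 4 and at 5.44, 3.65 and 6.02 CPM in KO insulin livers 1, 2 and 4. All 3 insulin livers were below all 4 saline livers, a separation seen in 17.6% of all genes tested. Dbp fell by 1.36 on the log2 scale (SE 0.26), with an adjusted p of 0.0232 by the quasi-likelihood F-test of edgeR after Benjamini-Hochberg adjustment. The adjusted p was over 0.05 by the same test with all 4 groups in 1 fit, and without KO saline liver 4 or any 1 of the 3 KO insulin livers. Bhlhe40 was read at 31.0, 20.3, 32.1 and 26.4 CPM with saline and at 20.0, 14.2 and 15.4 CPM with insulin. The highest insulin liver, at 20.0, was just under the lowest saline liver, at 20.3. Bhlhe40 fell by 0.74 (SE 0.18, unadjusted p = 0.00199 by edgeR), with an adjusted p of 0.0597 by the quasi-likelihood F-test of edgeR after Benjamini-Hochberg adjustment.

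Nfil3 was read at 29.2, 21.8, 44.1 and 18.3 CPM with saline and at 40.6, 48.5 and 59.7 CPM with insulin in the KO livers. Saline liver 3, at 44.1, overlapped the insulin group. The change was 0.80 (SE 0.26, unadjusted p = 0.0113 by edgeR). It was 0.65 (unadjusted p = 0.0537) without KO insulin liver 4, and then did not pass. With all 4 groups of the experiment in 1 fit it was 0.81 (unadjusted p = 0.0559).

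Tef was read at 145, 121, 91.8 and 118 CPM in the KO saline livers and at 152, 118 and 153 CPM in the KO insulin livers. The ranges overlapped, and the change of 0.24 (SE 0.16, unadjusted p = 0.154 by edgeR) had the other sign than in WT. Without KO saline liver 1 it was 0.35 (unadjusted p = 0.0436) and passed. Hlf was read at 51.5, 63.8, 46.0 and 61.7 CPM with saline and at 54.5, 51.7 and 51.1 CPM with insulin. The 3 insulin livers lay inside the saline range. Ciart was read at 5.46, 2.13, 3.42 and 2.19 CPM with saline and at 4.48, 3.48 and 1.65 CPM with insulin. Bhlhe41 was read at 2.10, 1.62, 0.326 and 2.84 CPM with saline and at 1.90, 0.384 and 1.76 CPM with insulin. Both overlapped and did not pass, at -0.04 (SE 0.41) for Ciart and -0.35 (SE 0.67) for Bhlhe41.

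The interaction test asks whether the insulin effect differed between WT and KO livers, given as the effect in WT minus that in KO. Of the 7 genes 1 passed at an unadjusted p under 0.05 (Tef), against 8.79% of the 14670 genes tested. The Tef difference was -0.75 on the log2 scale (SE 0.24, unadjusted p = 0.00563 by edgeR), with an adjusted p of 0.445 by the quasi-likelihood F-test of edgeR after Benjamini-Hochberg adjustment. At an adjusted p under 0.05 edgeR passed 0 of all genes, 0%, with 1289 under 0.05 unadjusted, and DESeq2 passed 20 genes, none of them among the 7. Hlf, which passed in WT only, differed by -0.41 (SE 0.23, unadjusted p = 0.0871), and by -0.55 (unadjusted p = 0.0181) without WT insulin liver 3. Bhlhe40, which passed in KO only, differed by 0.52 (SE 0.42, unadjusted p = 0.229). Dbp, which passed in both, differed by -0.75 (SE 0.46, unadjusted p = 0.123), and by -0.99 (unadjusted p = 0.0186) without WT saline liver 3. For Nfil3, Ciart and Bhlhe41 the difference was 0.18, -0.09 and -0.28, each smaller than its SE of 0.54, 0.77 and 0.86. Across the alternatives it took both signs, from -0.33 to 0.37 for Nfil3, -0.81 to 0.39 for Ciart and -0.84 to 0.07 for Bhlhe41. None of these passed.

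**Figure D2:**
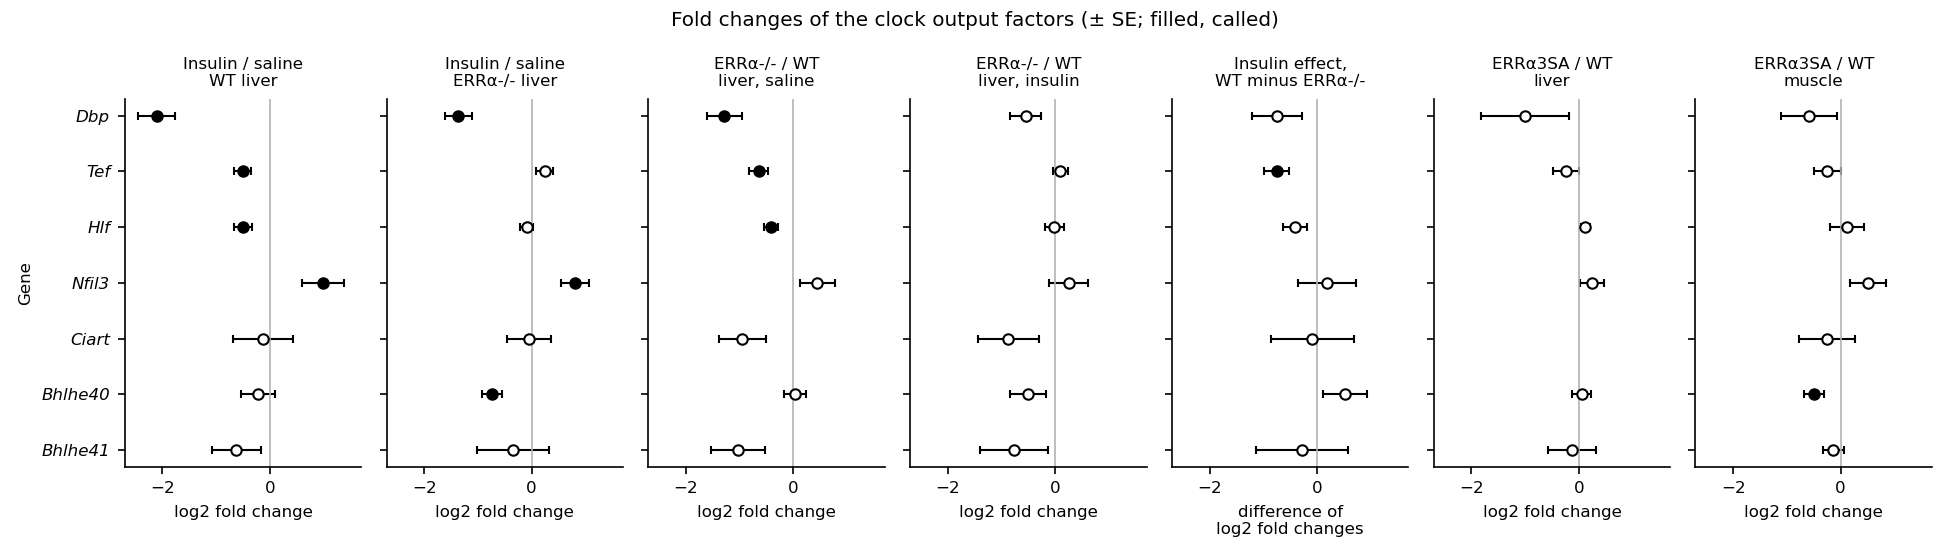
Log2 fold change of each of the 7 genes between groups of the same tissue, from edgeR (horizontal axis, log2 fold change with SE; filled points passed). Ciart was not tested in the livers of the ERRα3SA experiment.

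The loss of ERRα was compared in livers with saline and then in livers with insulin. These comparisons reuse the libraries of the insulin comparisons, so their values stand side by side and are not counted as further support. With saline, the 3 activators were lower in KO than in WT livers. By the same rule 3 of the 7 genes passed, against 11.3% of the 13481 genes tested. At an adjusted p under 0.05 edgeR passed 0 of the 7, against 0.0816% of all genes, with 3 of the 7 under 0.05 unadjusted. DESeq2 passed 2 of the 7 after Benjamini-Hochberg adjustment, Dbp and Tef, and 254 of all genes, against 11 by edgeR. The median change of the 7 genes was -0.65, against 0.00 over all genes.

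The values given above show Dbp at 13.5, 12.4, 8.38 and 17.5 CPM in the KO saline livers against 30.4, 33.9, 14.0 and 48.1 CPM in the WT saline livers. WT liver 3 was the only WT liver within the KO range. Dbp fell by 1.29 on the log2 scale (SE 0.32, unadjusted p = 0.00201 by edgeR), with an adjusted p of 0.185 by the quasi-likelihood F-test of edgeR after Benjamini-Hochberg adjustment. Tef overlapped by 1 pair of livers, KO liver 1 at 145 and WT liver 3 at 141 CPM, and fell by 0.65 (SE 0.17, unadjusted p = 0.00322 by edgeR). Hlf overlapped only by KO liver 2 at 63.8 and WT liver 1 at 63.7 CPM, and fell by 0.42 (SE 0.13, unadjusted p = 0.00818 by edgeR). Across all genes tested, 7.09% had groups without overlap.

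Nfil3 was at 0.44 (SE 0.32) and Bhlhe40 at 0.02 (SE 0.20) between KO and WT saline livers, and neither passed. Ciart at -0.95 (SE 0.44, unadjusted p = 0.0551) and Bhlhe41 at -1.03 (SE 0.50, unadjusted p = 0.0622) came close in edgeR. With DESeq2 both passed, with unadjusted p of 0.0232 for Ciart and 0.0299 for Bhlhe41, as they did with no filter on low counts. Single livers also decided them. Ciart passed without WT saline liver 1 (-1.10), WT saline liver 3 (-1.21) or KO saline liver 1 (-1.30), and Bhlhe41 passed without KO saline liver 4 (-1.39).

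After insulin, 0 of the 7 genes passed between KO and WT livers, against 9.99% of the 13665 genes tested. By edgeR 0 of the 7 had an unadjusted p under 0.05, DESeq2 also passed 0, and 0.0585% of all genes had an adjusted p under 0.05. The median change of the 7 genes was -0.51, against -0.02 over all genes. Dbp was at -0.55 (SE 0.29, unadjusted p = 0.0817 by edgeR), with KO livers at 3.65 to 6.02 and WT livers at 4.61 to 9.77 CPM. Tef at 0.10 (SE 0.15) and Hlf at -0.02 (SE 0.18) were nearer 0. Single libraries moved this count. Without WT insulin liver 3, the liver with muscle markers, Dbp (-0.71, unadjusted p = 0.0193) and Ciart (-1.14, unadjusted p = 0.0495) passed. Nfil3 passed without WT insulin liver 1 (0.76, unadjusted p = 0.00352), and Bhlhe40 passed without WT insulin liver 4 (-0.69, unadjusted p = 0.0491). With replicate number as a block and all libraries kept, Dbp (-0.74) and Ciart (-1.04) passed.

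Across the 4 liver groups the mean Dbp level ran from 31.6 ± 14.0 CPM in WT saline (SD, n = 4) through 12.9 ± 3.74 in KO saline (SD, n = 4) and 7.33 ± 2.12 in WT insulin (SD, n = 4) to 5.04 ± 1.24 CPM in KO insulin (SD, n = 3). Each neighbour in that order overlapped the next. Tef was highest in WT saline livers, at 186 ± 40.9 CPM (SD, n = 4), and overlapped everywhere below, at 141 ± 19.7 in KO insulin (SD, n = 3), 131 ± 14.4 in WT insulin (SD, n = 4) and 119 ± 21.7 CPM in KO saline (SD, n = 4). Hlf was at 74.6 ± 8.67 CPM in WT saline (SD, n = 4). It was at 55.7 ± 8.44 in KO saline and 52.8 ± 12.6 in WT insulin (SD, n = 4 each) and at 52.4 ± 1.82 CPM in KO insulin (SD, n = 3), groups that overlapped one another. Nfil3 had the reverse order of saline and insulin, from 49.6 ± 9.58 CPM in KO insulin (SD, n = 3) through 41.5 ± 25.5 in WT insulin (SD, n = 4) to 28.4 ± 11.4 in KO saline and 20.9 ± 8.57 CPM in WT saline (SD, n = 4 each), with overlap at each step.

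Reads of overlapping genes could enter these values, since the strand setting of the counting is not stated. Dbp shares 539 exonic bases with Sphk2, which lies on the other strand. Sphk2 stood at 44.1 ± 4.49 CPM in WT saline and 47.5 ± 9.75 CPM in WT insulin livers (SD, n = 4 each), a change of 0.11 (SE 0.16), which did not pass. Bhlhe41 shares 1280 bases with Gm43909, which was counted only in the ERRα3SA experiment and had at most 15 counts there. Tef shares 193 bases with Gm17597 and Bhlhe40 shares 118 bases with 0610040F04Rik, each of which had at most 9 counts in any sample.

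**Figure D3:**
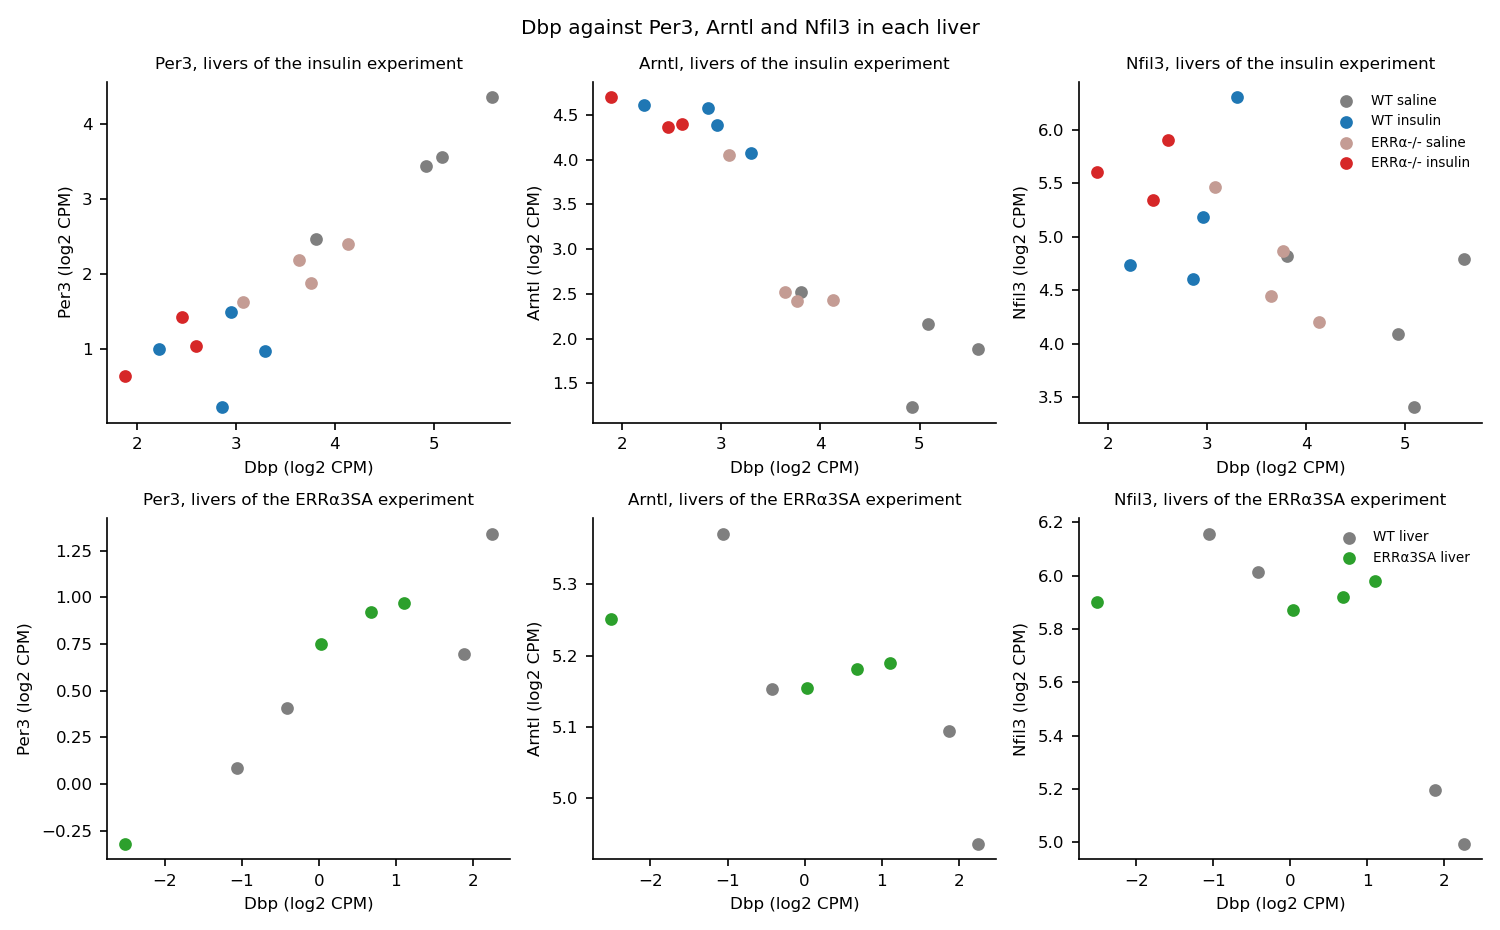
Log2 CPM of Per3, Arntl and Nfil3 (vertical axes) against log2 CPM of Dbp (horizontal axis) in each liver, with the insulin experiment above and the ERRα3SA experiment below. Per3 is high where Dbp is high, and Arntl is low there.

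Among 13241 genes, the one whose log2 level followed Dbp most closely over the 15 livers was Per3, a period gene of the clock, with r = 0.93, and r = 0.74 within groups. Over the 8 livers of the ERRα3SA experiment Dbp and Per3 had r = 0.92. These livers share groups and libraries, so r is a description and no p is given. Per3 was read at 10.8, 11.7, 5.48 and 20.5 CPM in the WT saline livers, in the same order of livers as Dbp, and at 1.91, 2.75, 1.94 and 1.11 CPM in the WT insulin livers. The next genes for Dbp were Plekhg6 (r = 0.90, 0.66 within groups, 0.45 in the other 8 livers) and Ddo (r = 0.89, 0.79 and 0.17).

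For Tef the closest genes were Fzd8 (r = 0.82, 0.69 within groups), Zfp526 and Ankrd28, and in the other 8 livers the r of Fzd8 was 0.06. For Nfil3 they were Gata6 (r = 0.86, 0.88 within groups, 0.45 in the other 8 livers), Pnrc1 (r = 0.86, 0.85 and 0.70) and Dop1b. For Ciart they were Ripk4 (r = 0.82), Abhd12 and Slc2a1, for Bhlhe40 Gpr17 (r = 0.88), Midn and Unc93a, and for Bhlhe41 Amer1 (r = 0.85), Opa3 and Ano1. The r of the closest gene in the other 8 livers was 0.24 for Ciart, 0.40 for Bhlhe40 and 0.28 for Bhlhe41.

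For Hlf the closest gene was Kdr (r = 0.93, 0.89 within groups), the VEGF receptor of endothelial cells, followed by Bahcc1 and Ago1. In the other 8 livers Hlf and Kdr had r = -0.05. Kdr is 1 of 4 endothelial markers, whose sum was 108, 192, 153 and 160 CPM in the WT saline livers and 115, 85.0, 135 and 142 CPM in the WT insulin livers. Hlf and this sum were both lowest in WT insulin liver 2. In KO livers the sum was 134, 135, 111 and 125 CPM with saline and 139, 130 and 133 CPM with insulin. Of the 4 markers Kdr fell with insulin in WT liver, by 0.60 (unadjusted p = 0.0190 by edgeR), and the other 3 did not pass. Without regard to passing, 3 of the 4 were below 0 and 1 was above, with a median of -0.36. All 4 had counts in every liver. Of 5 cholangiocyte and stellate cell markers 1 fell with insulin in WT liver, Lrat at -0.88 (SE 0.19), while Dcn, the most abundant, was at 0.21 (SE 0.13). In all 4 of these 5 were below 0, with a median of -0.14. Of 2 adipocyte markers tested 1 rose, Fabp4 at 0.93 (SE 0.31), and 0 of 5 liver, 0 of 5 blood and 0 of 5 macrophage and leukocyte markers passed by edgeR. The 1 muscle marker tested rose, Acta1 at 5.15 (SE 1.82), and its highest level was in WT insulin liver 3. In KO liver with insulin 1 of 5 liver markers rose, Cps1 at 0.74 (SE 0.25), and 1 of 5 blood markers, Hba-a2 at 0.90 (SE 0.37). No other marker passed there by edgeR, but all 5 blood markers were above 0, with a median of 0.55, as were all 4 adipocyte markers tested, with a median of 0.86, and all 5 macrophage and leukocyte markers, with a median of 0.14. Between KO and WT livers with saline, 1 of 4 endothelial, 1 of 5 blood, 1 of 4 macrophage and leukocyte and 1 of 5 cholangiocyte and stellate cell markers were lower and none were higher by edgeR. Without regard to passing, all 5 blood markers were below 0, with a median of -0.41, as were 4 of 5 cholangiocyte and stellate cell markers, with a median of -0.16. Of 4 endothelial markers 3 were below 0, with a median of -0.26. Of 4 macrophage and leukocyte markers tested 3 were below 0, with a median of -0.14. All 3 adipocyte markers tested were above 0, with a median of 0.69, as were all 5 liver markers, with a median of 0.08. Between KO and WT livers with insulin, 2 of 5 liver and 1 of 4 endothelial markers were higher by edgeR. Of 4 muscle markers tested 1 was lower, and no other marker passed there. Without regard to passing, all 4 endothelial, all 5 cholangiocyte and stellate cell and all 3 adipocyte markers tested were above 0. All 4 muscle markers tested were below 0, with a median of -2.83. A change in cell makeup was not tested. The part of these markers in the results of the 7 genes was not tested.

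Core clock genes moved in both directions with insulin in WT liver. Those that rose were Arntl by 2.42 (SE 0.25), Npas2 by 2.47 (SE 0.72) and Cry1 by 0.86 (SE 0.19), and genes that fell include Per3 (-2.65, SE 0.39) and Per2 (-1.21, SE 0.34). In KO liver these 5 passed in the same directions, with Arntl at 1.45 (SE 0.37), Npas2 at 1.15 (SE 0.42), Cry1 at 0.76 (SE 0.24), Per3 at -1.001 (SE 0.29) and Per2 at -0.64 (SE 0.28), and Cry2 rose there by 0.38 (SE 0.12). Npas2 was low in WT saline livers 1 to 4, at 0.518, 0.797, 0.891 and 0.0231 CPM, which limits its fold change. Per3 passed the interaction test, at -1.66 (SE 0.50, unadjusted p = 0.00438 by edgeR). Between KO and WT livers with saline, Arntl was higher by 1.03 (SE 0.40) and genes that were lower include Per2, Per3, Cry2 and Nr1d2. With insulin none of these 5 passed between KO and WT livers by edgeR, with Arntl at 0.05 (SE 0.17) and Per3 at 0.08 (SE 0.38). Arntl was read at 5.30, 5.67, 16.5 and 5.34 CPM in KO saline livers 1 to 4. It was read at 2.30, 4.43, 5.69 and 3.63 CPM in WT saline livers 1 to 4. Only KO saline liver 3 lay above the WT saline range, and it had the lowest Dbp and the highest Nfil3 of its group. The part of this liver in the changes was not tested.

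PAR bZIP proteins are known to drive genes of drug and heme metabolism, and the list of such genes holds 8. With insulin in WT liver 1 of the 7 tested rose and 3 fell, with a median of -0.29. Alas1, the first enzyme of heme synthesis, fell by 0.99 (SE 0.22), Cyp2a5 by 0.61 (SE 0.23) and Nr1i3, the receptor CAR, by 0.47 (SE 0.18), while Cyp2b10 rose by 1.05 (SE 0.38). None of Cyp2a5 (-0.74, SE 0.43), Nr1i3 (-0.28, SE 0.32) and Cyp2b10 (-0.03, SE 0.75), which did not pass in KO, passed the interaction test by edgeR. Of the 8 genes 1 passed that test, above 0, against 8.79% of all genes, with a median of -0.27. In KO liver 2 of 8 rose and 2 fell, with a median of 0.12, and Alas1 fell by 0.91 (SE 0.15). Cyp2a4, which also passed as lower there, had 9 to 1291 counts in the KO saline livers and at most 7 in the other livers of the experiment, and it is a near copy of Cyp2a5, so its values are uncertain. Between KO and WT livers with saline, 1 of 7 was higher, Cyp2b10 at 1.33 (SE 0.52), and 1 was lower, Pdxk at -0.66 (SE 0.16), with a median of 0.02. Between KO and WT livers with insulin, 2 of 7 were higher and 0 lower, with a median of 0.29.

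Of 12 other rhythmic liver genes, 4 rose and 2 fell with insulin in WT liver, with a median of 0.14, and 4 rose and 2 fell in KO liver, with a median of 0.41. Lpin1 rose in both, by 1.86 (SE 0.40) and 2.01 (SE 0.28), as did Upp2, by 1.25 (SE 0.36) and 1.82 (SE 0.52). Wee1, the cell cycle kinase, was at -1.23 (SE 0.46) in WT and at -0.63 (SE 0.60) in KO, where it did not pass. Its interaction was -0.61 (SE 0.78, unadjusted p = 0.449 by edgeR). Of the 12 genes 3 passed the interaction test, 1 above 0 and 2 below, against 8.79% of all genes, with a median of -0.28. Between KO and WT livers with saline 0 of the 12 rose and 3 were lower, namely Usp2 (-1.44, SE 0.37), Wee1 (-1.53, SE 0.57) and Nampt (-0.35, SE 0.12), with a median of -0.17. Between KO and WT livers with insulin 1 of the 12 was higher and 2 were lower, with a median of 0.09.

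Genes that respond to fasting and to glucocorticoids moved in the same livers. Of 9 insulin and fasting genes 4 rose and 1 fell with insulin in WT liver, with a median of 0.61. Igfbp1, which FoxO factors activate in fasting, was higher by 2.35 (SE 0.46). Of 5 glucocorticoid response genes 4 rose and 0 fell, with a median of 0.85, and Fkbp5 rose by 0.90 (SE 0.22). In KO liver the counts were 3 up and 2 down of 9, with a median of 0.52, and 3 up and 0 down of 5, with a median of 0.61, where Igfbp1 rose by 1.29 (SE 0.53) and Fkbp5 by 1.35 (SE 0.18). Between KO and WT livers with saline, 3 of 9 insulin and fasting genes were higher and 1 was lower, with a median of 0.18, and 2 of 5 glucocorticoid response genes were higher and 0 lower, with a median of 0.59. With insulin these were 2 higher and 1 lower of 9, with a median of 0.34, and 1 higher and 0 lower of 5, with a median of 0.26. In ERRα3SA liver 0 of 9 and 2 of 5 passed by edgeR, the 2 being higher, with medians of -0.06 and 0.45. In the interaction test 2 of 9 insulin and fasting genes passed, each below 0, against 8.79% of all genes, with a median of 0.29. Of 5 glucocorticoid response genes 1 passed that test, above 0, with a median of 0.11. The part of these genes in the changes of the 7 genes was not tested.

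**Figure D4:**
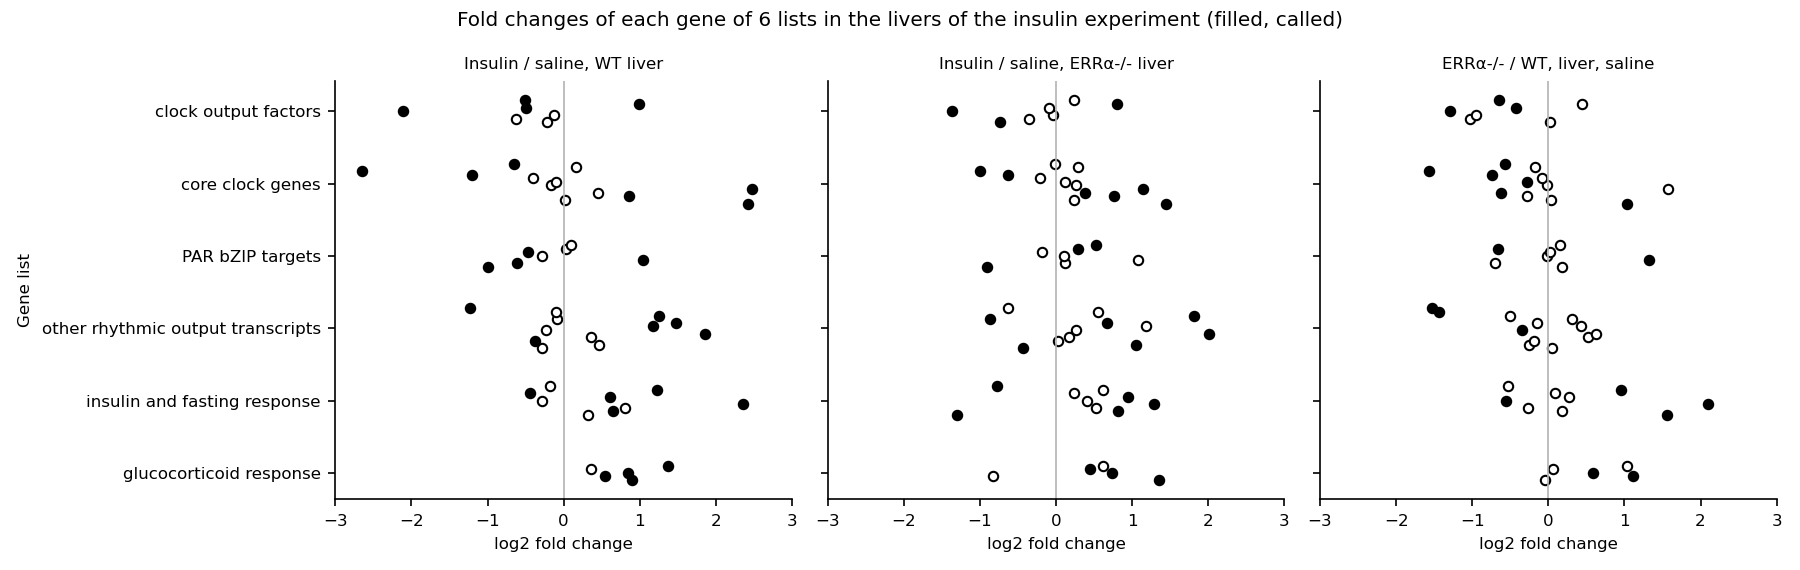
Log2 fold change (horizontal axis) of each tested gene of 6 lists (vertical axis) in 3 liver comparisons, from edgeR; filled points passed. Cyp2a4 is not drawn, and core clock genes lie at both ends of the axis in WT liver with insulin.

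The ERRα3SA experiment asks what follows when ERRα lacks its phosphorylated serines. In liver 0 of the 6 genes tested passed, against 4.88% of the 13339 genes tested. Ciart, at 2 to 11 counts per liver, was left out by the filter on low counts. By edgeR 0 of the 6 had an unadjusted p under 0.05, and DESeq2 also passed 0. At an adjusted p under 0.05 edgeR passed 0 of all genes, 0%, with 996 under 0.05 unadjusted, and DESeq2 passed 43. The median change of the 6 genes was -0.03, against 0.00 over all genes. Of 5 cholangiocyte and stellate cell markers 1 was higher and 2 were lower by edgeR. Of 4 macrophage and leukocyte markers tested 1 was higher. Without regard to passing, all 4 of these and all 4 endothelial markers were above 0, with medians of 0.27 and 0.11. All 5 liver and all 5 blood markers were below 0, with medians of -0.16 and -0.25. The part of these markers was not tested.

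Dbp was read at 0.670, 4.67, 3.60 and 0.401 CPM in the WT littermate livers and at 2.07, 0.944, 1.52 and 0.0962 CPM in the ERRα3SA livers, or 2 to 118 counts. Littermates 1 and 4 were low and littermates 2 and 3 high, so the spread within WT exceeded the gap between genotypes. The change was -1.001 (SE 0.82, unadjusted p = 0.249 by edgeR). Across the alternatives it ran from -1.44 to -0.41. Nfil3 was read at 64.5, 31.8, 36.6 and 71.3 CPM in the littermates, high in those where Dbp was low, and at 63.0, 58.5, 60.5 and 59.7 CPM in the ERRα3SA livers. The ERRα3SA livers lay within the WT range, and the change was 0.25 (SE 0.23), from 0.08 to 0.45 across the alternatives.

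Tef was read at 38.6, 57.9, 48.9 and 29.6 CPM in littermate livers and at 47.1, 39.0, 39.5 and 22.5 CPM in ERRα3SA livers, with the same 2 littermates low. ERRα3SA liver 4, the liver with the lowest liver marker sum, was the lowest for both Dbp and Tef. It also stood apart over all genes, with a chi-square per degree of freedom of 146 to 233 against the other 3 ERRα3SA livers, which had 16.8 to 49.1 between them. The Tef change was -0.24 (SE 0.24), from -0.39 to -0.06 across the alternatives, the last without that liver. In ERRα3SA against WT littermate liver without ERRα3SA liver replicate 4, the log2 fold change of Dbp was -0.62 (SE 0.72), of Tef -0.06 (SE 0.19) and of Nfil3 0.25 (SE 0.25). Dbp, Tef and Nfil3 passed under none of the alternatives. Hlf was read at 37.4, 38.5, 35.4 and 30.0 CPM in littermate livers and at 42.1, 37.0, 37.6 and 36.5 CPM in ERRα3SA livers. Littermate livers 3 and 4 lay below every ERRα3SA liver and the other 2 did not, and the change was 0.12 (SE 0.09). Bhlhe40 was read at 44.6, 76.0, 46.3 and 55.1 CPM and at 44.2, 59.4, 65.2 and 61.1 CPM in the same order of groups, and Bhlhe41 at 0.223, 0.832, 0.471 and 0.491 CPM and at 0.470, 0.236, 0.686 and 0.433 CPM. Ciart was read at 0.319, 0.277, 0.386 and 0.178 CPM and at 0.0940, 0.142, 0.539 and 0.241 CPM. All 3 overlapped between genotypes, and the change was 0.05 (SE 0.18) for Bhlhe40 and -0.12 (SE 0.45) for Bhlhe41. Of the core clock genes, Arntl at 0.05 (SE 0.09) and Per3 at -0.05 (SE 0.36) did not pass in liver. None of the 7 PAR bZIP target genes tested passed by edgeR, with a median of -0.24, and 3 of 12 other rhythmic genes were higher, Rgs16 at 1.99 (SE 0.87), Klf10 at 0.90 (SE 0.37) and Nampt at 0.30 (SE 0.10), with a median of 0.04.

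**Figure D5:**
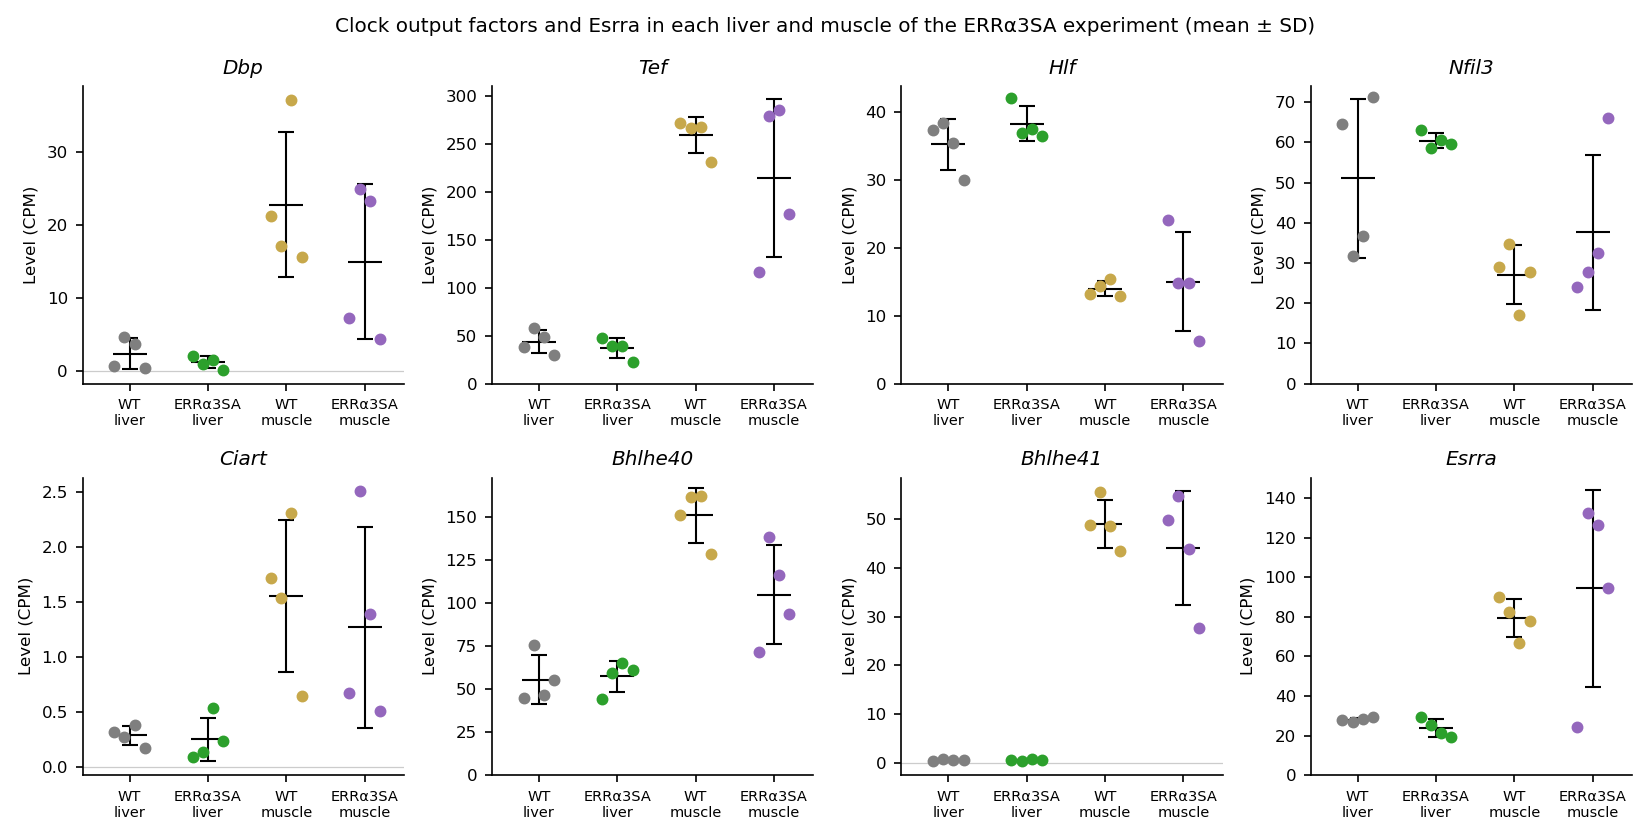
Level of each of the 7 genes in every liver and muscle of the ERRα3SA experiment, with Esrra in the last panel (vertical axis, CPM; each point, 1 sample; bars, mean ± SD). The range of ERRα3SA muscle is wider than that of WT muscle for every gene but Dbp.

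In muscle 1 of the 7 genes passed between ERRα3SA mice and littermates, against 4.54% of the 14081 genes tested, with a median change of -0.25 against 0.02 over all genes. At an adjusted p under 0.05 edgeR passed 0 genes, 0%, with 672 under 0.05 unadjusted, and DESeq2 passed 56. Without ERRα3SA muscle replicate 1, 2506 genes passed and 464 had an adjusted p under 0.05. Between ERRα3SA and littermate muscle all 5 blood markers were above 0, with a median of 0.47, and 1 passed by edgeR. Of 4 macrophage and leukocyte markers tested 3 were above 0 and 1 below, with a median of 0.72, and 0 passed. Of 3 cholangiocyte and stellate cell markers tested 1 passed as lower. The part of these markers in the changes of the 7 genes was not tested.

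The gene that passed was Bhlhe40, read at 151, 162, 163 and 129 CPM in littermate muscle and at 71.4, 139, 116 and 93.7 CPM in ERRα3SA muscle. Only ERRα3SA muscle 2, at 139, reached the littermate range. Bhlhe40 fell by 0.50 (SE 0.19, unadjusted p = 0.0269 by edgeR). It was -0.35 (SE 0.13, unadjusted p = 0.0213) without ERRα3SA muscle 1, and -0.45 (SE 0.21, unadjusted p = 0.0636) without ERRα3SA muscle 4. Leaving out littermate muscle 1 (-0.49, unadjusted p = 0.0548), 2 (-0.46, unadjusted p = 0.0675) or 3 (-0.46, unadjusted p = 0.0671) also ended the call.

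Dbp was read at 21.2, 17.1, 37.2 and 15.6 CPM in littermate muscle and at 7.20, 24.9, 23.3 and 4.41 CPM in ERRα3SA muscle. Tef was read at 272, 266, 267 and 231 CPM in littermates and at 116, 279, 285 and 176 CPM in ERRα3SA muscle. For both genes ERRα3SA muscles 1 and 4 lay below every littermate and muscles 2 and 3 did not. The change was -0.58 (SE 0.52) for Dbp and -0.25 (SE 0.25) for Tef. Without muscle 1 it was -0.36 (SE 0.50) and -0.04 (SE 0.14), and without muscle 4 it was -0.27 (SE 0.44) and -0.17 (SE 0.28), and none of these passed.

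Hlf was read at 13.2, 14.5, 15.4 and 12.9 CPM in littermate muscle and at 24.2, 14.8, 14.9 and 6.26 CPM in ERRα3SA muscle, so that ERRα3SA muscle 1 was high and muscle 4 low, with a change of 0.12 (SE 0.32), -0.20 (SE 0.24) without muscle 1 and 0.38 (SE 0.19, unadjusted p = 0.0863 by edgeR) without muscle 4. Nfil3 was read at 29.1, 34.7, 17.0 and 27.7 CPM in littermates and at 24.0, 27.9, 32.4 and 66.1 CPM in ERRα3SA muscle, where muscle 4 alone was above the littermate range. The Nfil3 change was 0.51 (SE 0.34), 0.69 (SE 0.32, unadjusted p = 0.0616) without muscle 1 and 0.07 (SE 0.23) without muscle 4. Bhlhe41 was read at 48.8, 55.6, 48.6 and 43.5 CPM in littermates and at 49.9, 54.7, 44.0 and 27.7 CPM in ERRα3SA muscle, and Ciart at 1.72, 1.54, 2.31 and 0.649 CPM and at 0.675, 2.51, 1.39 and 0.511 CPM. Bhlhe41 was low only in ERRα3SA muscle 4, and Ciart overlapped, with changes of -0.13 (SE 0.19) and -0.25 (SE 0.53). Without muscle 1 the changes of Bhlhe41 and Ciart were -0.19 (SE 0.18) and -0.06 (SE 0.52), and without muscle 4 they were 0.03 (SE 0.13) and 0.02 (SE 0.50). None of the changes of Hlf, Nfil3, Bhlhe41 and Ciart passed.

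The WT littermates also allow liver and muscle to be compared, and whether both tissues came from the same mice is not given. By an adjusted p under 0.05 with a change of at least 2-fold, 6 of the 7 genes passed, against 58.1% of 14886 genes tested. Most genes thus differ between the tissues, while TMM scaling assumes that most do not, which limits the fold changes given here. The 7 genes had a median change of 2.43, against 0.00 over all genes. Bhlhe41 was read at 48.8, 55.6, 48.6 and 43.5 CPM in muscle and at 0.223, 0.832, 0.471 and 0.491 CPM in liver, where it had only 7 to 21 counts. It was 6.66 higher in muscle on the log2 scale (SE 0.18), with an adjusted p of 1.76e-13 by the quasi-likelihood F-test of edgeR after Benjamini-Hochberg adjustment.

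Dbp was 3.34 higher in muscle (SE 0.48), Tef 2.60 (SE 0.16), Ciart 2.43 (SE 0.40) and Bhlhe40 1.48 (SE 0.14), each with all 4 muscles above all 4 livers. Hlf went the other way from its PAR bZIP relatives, with 12.9 to 15.4 CPM in muscle and 30.0 to 38.5 CPM in liver, a change of -1.31 (SE 0.09). Groups without overlap were seen for those 6 genes, and for 82.9% of all genes tested. Nfil3 was -0.88 (SE 0.25) in muscle, with an adjusted p of 0.00469 by the quasi-likelihood F-test of edgeR after Benjamini-Hochberg adjustment, short of 2-fold. It passed 2-fold without littermate liver 2 (-1.07), littermate liver 3 (-1.03) or littermate muscle 2 (-1.02).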

How the data were processed

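Gene counts were taken as deposited by the authors, who aligned reads to mm10 with STAR. Ensembl genes were given symbols from GENCODE vM21, for 34490 of 35275 genes (97.8%) in the insulin experiment and 54495 of 54532 (99.9%) in the ERRα3SA experiment. The 7 genes and the gene lists were chosen with earlier results of these data known. Each comparison was fitted to its own groups in edgeR 4.0.16 (R 4.3.3) with TMM scaling, the default filter on low counts and the quasi-likelihood test, with Benjamini-Hochberg adjustment over all genes tested. The SE of an edgeR log2 fold change is its absolute value divided by the square root of the quasi-likelihood F. Log2 CPM used a prior count of 2. Alternatives were DESeq2 1.42.0, RLE scaling, no filter, a block for replicate number, all 4 groups of an experiment in 1 fit, each library left out in turn and CPM from total counts. The code was tested on simulated data. Named genes are the 7, the 3 genes with the highest r to each, Esrra, overlapping genes and members of the lists. Replicates are samples numbered within a group, and p-values set the difference between groups against the spread between replicates. Counts and medians over the core clock list are not reported.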

Additional observations from a re-analysis of the deposited data

Results flagged for a closer look

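Tef in WT littermate muscle had 1 sample far from the others. Replicate 4 was at 231 CPM and the others at 266 to 272 CPM, so its gap to the nearest was 0.866 of the range, above the 95% limit of Dixon's test for 4 samples. It was the only 1 of 49 sets of a gene and a group to pass, and chance passes about 1 in 20.

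The interaction test for Tef, the insulin effect in WT against KO livers, gave an unadjusted p of 0.00563 by edgeR. Of the 7 genes 1 had an unadjusted p under 0.05, against 8.79% of all genes, and 0 genes passed adjustment by edgeR. Tef had an adjusted p of 0.445 by the quasi-likelihood F-test of edgeR after Benjamini-Hochberg adjustment, so a difference in its response is not established.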

How the results depend on the processing

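The calls of Dbp, Tef and Hlf with insulin in WT liver and between KO and WT saline livers, of Dbp and Bhlhe40 with insulin in KO liver and of Tef in the interaction held at an unadjusted p under every alternative. By adjusted p, Dbp stayed under 0.05 under every alternative with insulin in WT liver, and in KO liver it did not with all 4 groups in 1 fit, nor without KO saline liver 4 or any 1 of the 3 KO insulin livers. Of the log2 fold changes of the 7 genes, 452 kept their call with a library left out, 15 gained it and 8 lost it, and under the other alternatives these were 260, 7 and 1. The cause of the moves below was not tested.

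With DESeq2, genes with an adjusted p under 0.05 numbered 942 for insulin in WT liver and 1013 in KO liver (425 and 398 by edgeR). They numbered 254 for KO against WT with saline and 248 with insulin (11 and 8 by edgeR), 20 for the interaction, 43 for ERRα3SA liver and 56 for ERRα3SA muscle (0 each by edgeR). With DESeq2 and with no filter on low counts, 5 of the 7 genes passed between KO and WT saline livers. Of all genes 1641 and 1962 passed in these fits, against 1520 in the main fit. With no filter the adjusted counts were 640 for insulin in KO liver, 30 and 31 for KO against WT with saline and with insulin and 2 for ERRα3SA liver, and 1050 genes passed in ERRα3SA liver and 1071 in ERRα3SA muscle. With all 4 groups in 1 fit the adjusted counts were 766 and 262 for insulin in WT and KO liver, 96 for KO against WT with insulin and 2 for ERRα3SA muscle, where 1013 genes passed.

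With replicate number as a block, 2 of the 7 genes passed between KO and WT insulin livers, Dbp (-0.74) and Ciart (-1.04). Of all genes 1328 passed there. Bhlhe41 passed between KO and WT saline livers (-1.23), where 1487 of all genes passed, and 334 genes passed in ERRα3SA muscle. Pairs with the same number did not resemble each other throughout, and the block changed no other call of the 7 genes.

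With 1 library left out at a time, the adjusted counts ran from 105 to 409 for insulin in WT liver, 42 to 608 in KO liver, 2 to 47 for KO against WT with saline, 3 to 48 with insulin and 0 to 464 in ERRα3SA muscle. Genes that passed ran from 818 to 1778 between KO and WT insulin livers. They ran from 886 to 1569 in the interaction and from 378 to 2506 in ERRα3SA muscle. Of the 7 genes, 0 to 2 passed between KO and WT insulin livers, 1 to 2 in the interaction and 0 to 1 in ERRα3SA muscle.

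With CPM from total counts the mean level moved for Hlf in KO insulin liver (49.9) and Nfil3 in ERRα3SA liver (57.4). Counts of 2 to 21 for Ciart and Bhlhe41 in the livers of the ERRα3SA experiment limit what can be read from them. Collection time within the sampling window was not tested.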
